A study of Mus musculus with 21 samples.

Results

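The nuclear-encoded subunits of the mitochondrial respiratory chain and of ATP synthase were followed in mouse livers lacking ERK1, ERK2 or both of these kinases. Members were chosen by symbol: names beginning with Ndufa, Ndufb, Ndufc, Ndufs or Ndufv (complex I), Uqcr (complex III), Cox4, Cox5, Cox6, Cox7 or Cox8 (complex IV) and Atp5 (complex V, the ATP synthase), together with Sdha, Sdhb, Sdhc and Sdhd (complex II) and Cyc1 (complex III). Cox6b2 and predicted or pseudogene symbols were left out. Of 92 matching symbols, 89 had at least 10 counts in total, out of 24421 symbols in the count table, and 86 of these passed the filter on low counts and were tested. The prefixes also admit 9 genes that are not subunits of the 5 complexes, namely the 7 complex I assembly factors Ndufaf1 to Ndufaf7 together with Atp5s and Atp5sl, and these are described apart. Ndufa4 and Ndufa4l2 carry a complex I name and are counted here with complex IV, where the Ndufa4 protein is now placed.

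The study compared 3 groups of 7 liver RNA libraries, all from mice given 3 mg of tamoxifen under the skin and killed 3 weeks later. The ERK1 knockout, labelled ERK1-/- -ERt-Alb-Cre-ERK2 Cre-, lacked Erk1 and had the conditional Erk2 allele without the Cre transgene. The ERK2 knockout, labelled ERt-Alb-Cre-ERK2 Cre+, lost Erk2 in hepatocytes (Erk2Δhep). The double knockout, labelled ERK1-/- -ERt-Alb-Cre-ERK2 Cre+, lacked Erk1 and had the conditional Erk2 allele with Cre. ERt-Alb-Cre is a tamoxifen-dependent recombinase under the hepatocyte-expressed albumin promoter, so other liver cells keep ERK2 by design. Sex, age and strain were not given in the sources used here, and livers without any knockout were not analysed here. The double knockout differed from the ERK1 knockout by Cre as well as by loss of ERK2, and the effects of Cre and ERK2 loss cannot be told apart in that comparison. No label says which animal a library came from, and each p-value therefore reflects spread among the libraries alone, part of which may be technical. Whole liver was sequenced, so fewer cells of a type and less RNA per cell cannot be told apart.

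Complex I takes electrons from NADH and complex II from succinate, both pass them through ubiquinone to complex III, and complex IV hands them to oxygen. Complexes I, III and IV pump protons across the inner mitochondrial membrane, and ATP synthase uses the returning protons to make ATP. All subunits of complex II and most subunits of the other complexes are encoded in the nucleus and imported, while mitochondrial DNA encodes the rest, which were not analysed here. In liver the chain supports gluconeogenesis, urea synthesis and fat oxidation, and hepatocytes are rich in mitochondria.

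Each library held between 37703680 and 45460470 counts. A set of 5 libraries was set apart: those labelled ERK1 KO 1 and ERK1 KO 2, ERK2 KO 5 and ERK2 KO 7, and double KO 7. In the 16 other libraries Mapk3, which encodes ERK1, was at 8.75 to 12.2 CPM (counts scaled to a library total of 1000000) in the ERK1 knockout, 5.18 to 8.03 in the double knockout and 32.9 to 39.8 in the ERK2 knockout. Mapk3 went against the labels in 4 of the 5: it stood at 39.9 CPM in the library labelled ERK1 KO 2, at 9.45 CPM in that labelled ERK2 KO 5, at 10.9 CPM in that labelled ERK2 KO 7 and at 36.5 CPM in that labelled double KO 7. All 21 libraries were kept under their labels, and the count of each complex is given with all 21 libraries and with these 5 left out. Ranges over libraries are in CPM without the TMM factors used in the tests (TMM scales libraries by the middle of the genes' ratios), and where these factors end a separation of groups named here, the scaled CPM stands beside it.

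Upstream bases are shown for 6 members chosen from the results. Ndufa8 had the largest fold change of complex I against both single knockouts, and Atp5b had the highest level per kilobase of ATP synthase. Atp5g1, Atp5g2 and Atp5g3 encode the same mature subunit c and gave different calls, and Atp5sl was lower. A link between these bases and the calls was not tested. Each line gives the 100 bases just before the start site in the RefSeq promoter table (GRCm38.p6), 5′ to 3′ on the gene's strand. For Atp5g3 that start lies 1138 bases inside the RefSeq gene, and for Atp5g1 63 bases inside it, so all 100 bases of Atp5g3 and 63 of Atp5g1 fall within the annotated gene span; those of the 4 others lie outside it. Capitals mark matches on either strand to the 8 motifs whose letters are given further on; in these bases GGGCGG (SP1), GCATGCGC (NRF1) and AAGGTCA (ERR) or their reverse complements were found.
Ndufa8, chr2:36049339-36049438, strand -: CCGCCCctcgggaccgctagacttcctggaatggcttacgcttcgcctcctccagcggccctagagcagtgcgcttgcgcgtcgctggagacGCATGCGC
Atp5b, chr10:128083207-128083306, strand +: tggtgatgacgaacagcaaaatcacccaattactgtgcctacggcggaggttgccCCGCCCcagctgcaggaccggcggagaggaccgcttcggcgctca
Atp5g1, chr11:96075632-96075731, strand -: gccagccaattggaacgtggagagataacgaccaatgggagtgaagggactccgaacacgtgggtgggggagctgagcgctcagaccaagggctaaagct
Atp5g2, chr15:102671048-102671147, strand -: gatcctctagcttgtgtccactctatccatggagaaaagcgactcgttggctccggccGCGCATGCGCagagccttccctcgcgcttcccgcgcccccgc
Atp5g3, chr2:73911327-73911426, strand -: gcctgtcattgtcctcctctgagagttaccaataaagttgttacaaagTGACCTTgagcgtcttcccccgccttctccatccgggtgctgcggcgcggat
Atp5sl, chr7:25619314-25619413, strand +: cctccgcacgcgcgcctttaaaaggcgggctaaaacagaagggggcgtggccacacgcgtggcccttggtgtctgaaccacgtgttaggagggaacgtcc
Atp5sl is Dmac2 in RefSeq, and the first of its 2 start sites is shown. Ndufa8 had an NRF1 match that began 8 bases before its start site, and an SP1 match 100 bases before it. In Atp5g2 the NRF1 matches on the 2 strands began 42 and 40 bases before the start and overlapped each other. Atp5g3 had an ERR match 52 bases and Atp5b an SP1 match 45 bases before the start, and none of the 8 motifs was found in these bases of Atp5g1 or Atp5sl. A match describes the letters and is not evidence of binding.

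Many respiratory chain and ATP synthase transcripts were higher in the double knockout than in each single knockout, by small amounts, and few were lower. Against the ERK1 knockout 45 of 86 tested members were higher and 2 were lower (edgeR quasi-likelihood test, adjusted p under 0.05 over all 14154 genes tested), where 12.2% of all genes tested were higher and 11.8% lower. The members' median log2 fold change was 0.25 and 82 of 86 were above 0, while over all genes 7086 of 14154 were above 0. Against the ERK2 knockout 37 members were higher and 3 lower, where 24.3% of all genes were higher and 20.3% lower. In that comparison the median was 0.17 and 70 of 86 were above 0. These 2 comparisons share the double-knockout libraries and are not independent of each other.

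With the 5 libraries left out, 54 members were higher and 2 lower in the double knockout than in the ERK1 knockout, against 22.9% of all genes higher and 23% lower, with a median of 0.29. Against the ERK2 knockout 31 were higher and 5 lower, against 26.1% and 25.1% of all genes, with a median of 0.16. The members' share called higher was thus 62.8% and 36.0% in these fits, and 52.3% and 43.0% with all 21 libraries.

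**Figure D1:**
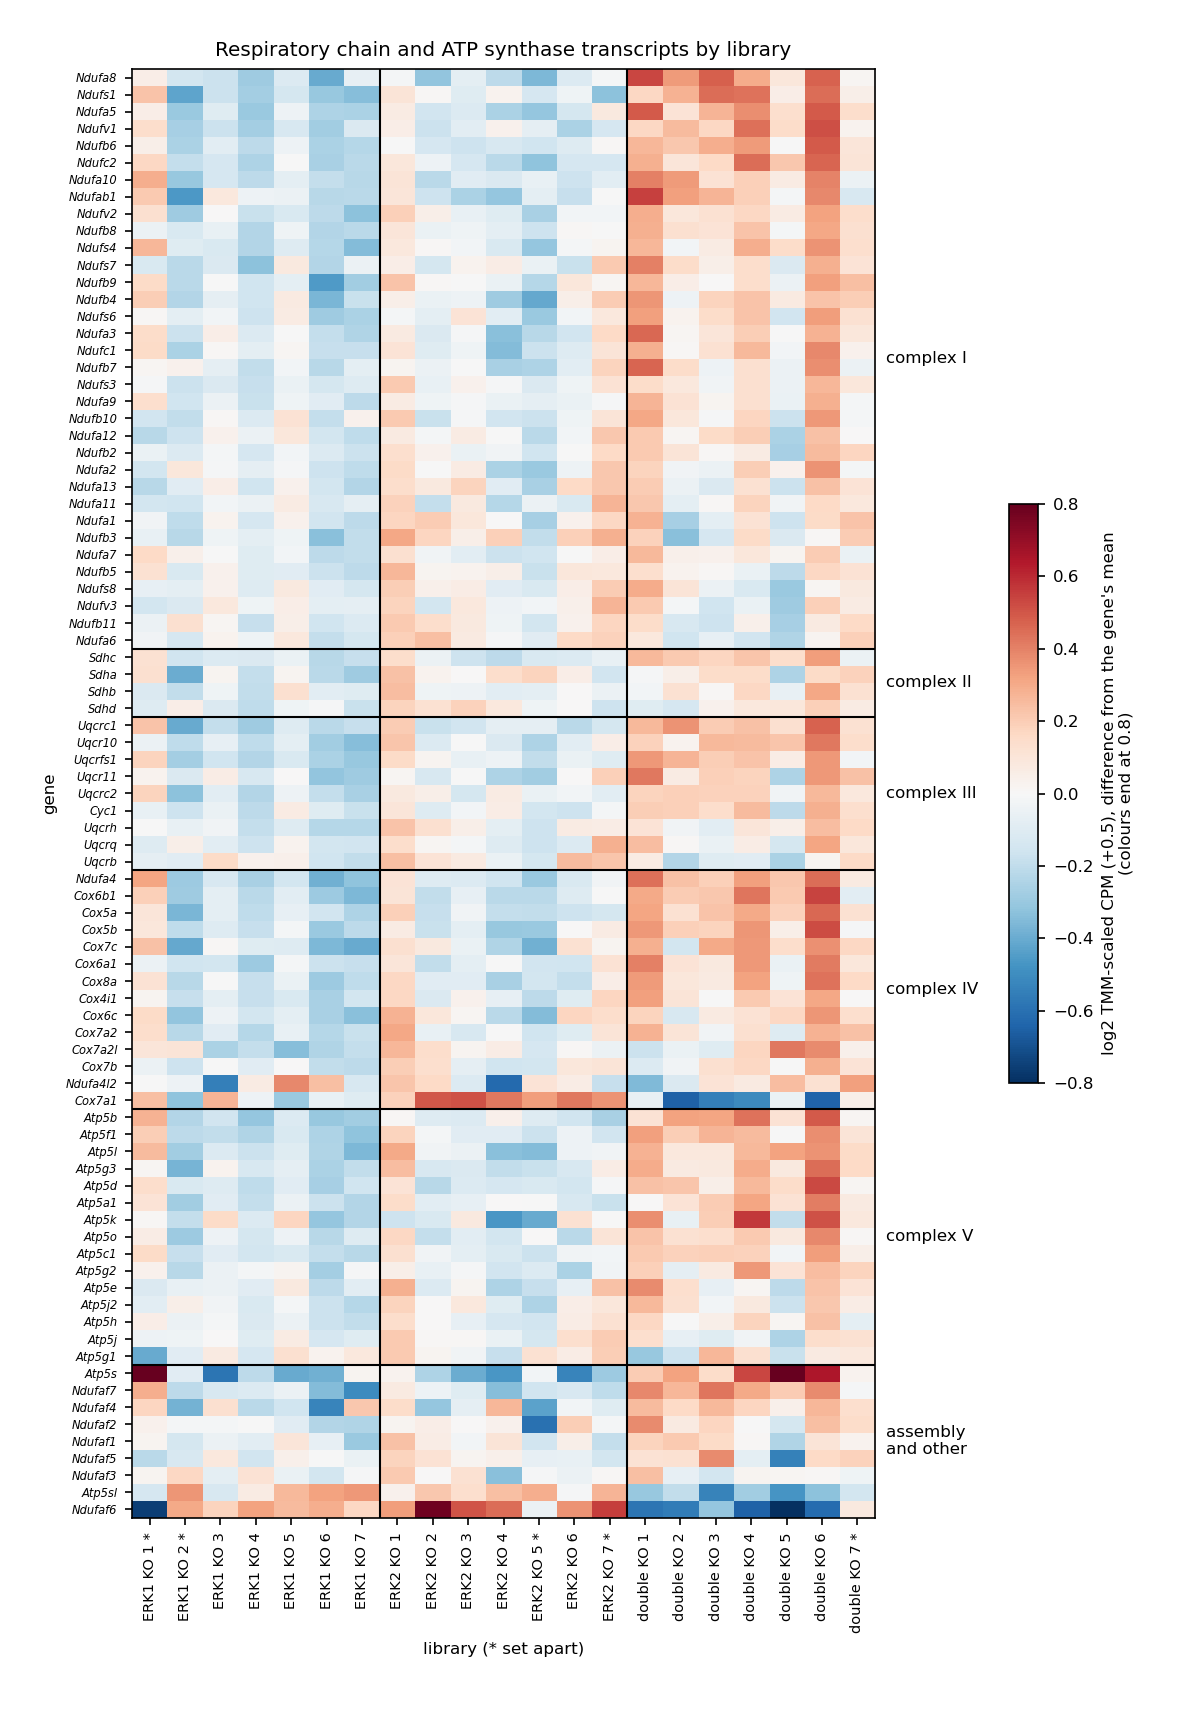
Rows are 85 of the 86 tested members by complex and columns the 21 libraries by group, with colour giving the log2 TMM-scaled CPM (pseudocount 0.5) as the difference from the gene's mean. Asterisks mark the 5 libraries set apart. In 6 of the 7 double-knockout libraries 59 to 81 of the 86 members lay above their own median over libraries, and in double KO 5 it was 43; ERK2 KO 1, at 82 of 86, was above all of these, and the other single-knockout libraries ran from 3 to 58. The rows of Ndufaf6, Atp5sl and Cox7a1 are mostly blue in the double knockout.

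Complex I was represented by 35 tested genes. In the double knockout 18 were higher than in the ERK1 knockout and 14 higher than in the ERK2 knockout, and 0 were lower in either. The median log2 fold changes were 0.23 and 0.14. Of the 7 core subunits, which carry the redox centres, 6 of 7 were higher against the ERK1 knockout and 3 of 7 against the ERK2 knockout. Of the 28 supernumerary subunits, 12 and 11 were higher. Without the 5 libraries 22 of 35 were higher against the ERK1 knockout, and 12 were higher and 1 lower against the ERK2 knockout. The lower gene was Ndufa6 at -0.23 (adjusted p = 0.024). The counts of this and each other complex stand beside 12.2% and 24.3% of all genes higher against the ERK1 and ERK2 knockouts. Without the 5 libraries these shares of all genes were 22.9% and 26.1%, so counts from the 2 fits have different backgrounds.

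Ndufs1, the iron-sulfur subunit of the module that takes electrons from NADH, had its lowest, median and highest values at 126, 166 and 191 CPM in the double knockout. In the ERK1 knockout these were 88.1, 104 and 156 CPM, and in the ERK2 knockout 93.1, 119 and 124 CPM. The double knockout lay above every ERK2-knockout library and overlapped the ERK1 knockout only through the library labelled ERK1 KO 1, at 156 CPM. With TMM scaling ERK2 KO 1, at 136, was above double KO 7 and double KO 5, at 130.3 and 131. The log2 fold changes were 0.47 ± 0.10 (SE, adjusted p = 0.0059) and 0.34 ± 0.10 (SE, adjusted p = 0.011). Ndufv1, the flavoprotein that binds NADH, changed by 0.40 ± 0.084 (SE, adjusted p = 0.0058) and 0.34 ± 0.084 (SE, adjusted p = 0.0035). Its partner Ndufv2 was higher as well (0.31, adjusted p = 0.011, and 0.20, adjusted p = 0.041), and the second of these calls was not made without the 5 libraries (adjusted p = 0.11).

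Ndufs3 and Ndufs7, core subunits nearer the ubiquinone site, had smaller fold changes. Both rose against the ERK1 knockout, by 0.21 and 0.29 on the log2 scale. Their values against the ERK2 knockout were 0.071 and 0.15, and neither passed (adjusted p = 0.35 and 0.13). Ndufs8, an iron-sulfur subunit of the same arm, had 71.0 to 83.0 CPM in the ERK1 knockout, 69.8 to 85.4 in the ERK2 knockout and 74.1 to 105 in the double knockout. Those 3 ranges overlapped, and neither comparison passed the test (adjusted p = 0.56 and 0.69).

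Among the supernumerary subunits, Ndufa8 had the largest fold changes, 0.49 ± 0.090 (SE, adjusted p = 0.0050) and 0.48 ± 0.090 (SE, adjusted p = 0.00069). Its values were 104, 147 and 166 CPM in the double knockout, 80.6, 93.5 and 117 CPM in the ERK1 knockout and 79.1, 95.5 and 99.0 CPM in the ERK2 knockout. The double knockout stood clear of the ERK2 knockout, and its lowest library, double KO 7 at 104 CPM, fell inside the range of the ERK1 knockout. Ndufa5 rose by 0.46 and 0.41 on the log2 scale (adjusted p = 0.0047 and 0.0011). Its range was 78.2 to 111 CPM in the double knockout, 55.9 to 80.1 CPM in the ERK1 knockout and 56.1 to 71.7 CPM in the ERK2 knockout, clear of the last and overlapping the ERK1 knockout at its upper end. Ndufc2, a membrane-arm subunit, reached 66.6 to 93.6 CPM against 48.6 to 61.6 CPM in the ERK2 knockout, a log2 fold change of 0.38 ± 0.083 (SE, adjusted p = 0.0015). At the other end, Ndufa6, Ndufb11 and Ndufv3 had values of 0.018, 0.028 and 0.047 against the ERK1 knockout, with adjusted p of 0.88, 0.81 and 0.69; these 3 were picked out after their values were seen.

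Complex II is the succinate dehydrogenase shared with the citric acid cycle. Of its 4 subunits 1 was higher against each single knockout, Sdhc, a membrane anchor, and these counts stood without the 5 libraries. With all 21 libraries 12.2% and 24.3% of all genes were higher against the ERK1 and ERK2 knockouts, and 22.9% and 26.1% without the 5. A count of 1 in 4 is not read as a result about complex II. Sdhc ran at 188, 253 and 263 CPM in the double knockout, with 6 libraries from 250.6 CPM upwards and double KO 7 at 188 CPM. It ran at 169, 183 and 231 CPM in the ERK1 knockout, whose highest value was ERK1 KO 1, and at 167, 179 and 201 CPM in the ERK2 knockout. Its log2 fold changes were 0.29 ± 0.071 (SE, adjusted p = 0.0095) and 0.27 ± 0.071 (SE, adjusted p = 0.0055). The flavoprotein Sdha had 410.1 to 662, 480.5 to 619 and 552 to 705 CPM in the ERK1, ERK2 and double knockouts, and all 3 ranges overlapped. Fold changes of Sdha, of the iron-sulfur subunit Sdhb and of the other anchor Sdhd were 0.19, 0.18 and 0.12 against the ERK1 knockout and -0.0085, 0.10 and -0.020 against the ERK2 knockout, with adjusted p from 0.072 to 0.95. The last values of Sdha and Sdhd changed sign with the scaling of the libraries, which is given in the closing section.

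Complex III, the cytochrome bc1 complex, had 9 tested genes, of which 7 were higher against the ERK1 knockout and 4 against the ERK2 knockout, with 0 lower and medians of 0.28 and 0.19. In the 16 other libraries 7 were higher against the ERK1 knockout, and 3 higher and 1 lower against the ERK2 knockout. Uqcrfs1 encodes the Rieske iron-sulfur protein, which carries electrons within the complex. It was at 273, 364 and 392 CPM in the double knockout, 223, 242 and 342 CPM in the ERK1 knockout and 238, 268 and 288 CPM in the ERK2 knockout. Only double KO 7, at 273 CPM, lay within the range of the ERK2 knockout (with TMM scaling double KO 5 did too, at 299.9 against 319 in ERK2 KO 1), and ERK1 KO 1, at 342 CPM, was the highest library of the ERK1 knockout. The log2 fold changes were 0.37 ± 0.082 (SE, adjusted p = 0.0068) and 0.25 ± 0.082 (SE, adjusted p = 0.021).

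Cyc1, the cytochrome c1 subunit, rose by 0.25 and 0.19 on the log2 scale (adjusted p = 0.024 and 0.044), and the second call was lost without the 5 libraries (adjusted p = 0.14). Uqcrc1, a core protein on the matrix side, rose by 0.41 ± 0.091 (SE, adjusted p = 0.0067) and 0.34 ± 0.091 (SE, adjusted p = 0.0056). Its double-knockout range of 339.5 to 463 CPM began just above the highest ERK2-knockout library, ERK2 KO 1 at 336 CPM. With TMM scaling that library, at 372, was above double KO 7 and double KO 5, at 352 and 353. The small subunit Uqcr10 rose by 0.39 (adjusted p = 0.0053) and 0.25 (adjusted p = 0.011). Uqcrb, picked out after its values were seen, was the only complex III gene with values below 0 with all 21 libraries. These were -0.017 and -0.16 and did not pass (adjusted p = 0.89 and 0.11). Without the 5 libraries Uqcrb was called lower against the ERK2 knockout, at -0.24 (adjusted p = 0.033). It was not the only gene of the complex left uncalled.

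Complex IV, cytochrome c oxidase, had 17 members, and 14 were tested. Of these 9 were higher and 0 lower against the ERK1 knockout, and 6 were higher and 1 lower against the ERK2 knockout, with medians of 0.31 and 0.21. Leaving out the 5 libraries, 11 were higher and 0 lower, and 6 higher and 1 lower. Ndufa4 was at 323, 422 and 463 CPM in the double knockout, 243, 264 and 416 CPM in the ERK1 knockout and 246, 282 and 309 CPM in the ERK2 knockout. It stood above every ERK2-knockout library, while ERK1 KO 1, at 416 CPM, lay among the double-knockout values. With TMM scaling ERK2 KO 1, at 342, was above double KO 7, at 335. Its log2 fold changes were 0.44 ± 0.10 (SE, adjusted p = 0.0068) and 0.38 ± 0.10 (SE, adjusted p = 0.0047). Cox6b1, a subunit at the interface of the dimer, rose by 0.42 and 0.37 (adjusted p = 0.0075 and 0.0049). Cox5a, which sits on the matrix side, rose by 0.39 and 0.35 (adjusted p = 0.0056 and 0.0022).

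Several complex IV subunits exist as isoforms, of which liver uses the widespread forms and heart or skeletal muscle another. The widespread forms Cox4i1, Cox6a1, Cox7a2 and Cox8a were at 599.8, 635, 168 and 429.7 CPM per kilobase of annotated exon in the ERK1 knockout. They rose against the ERK1 knockout by 0.29, 0.35, 0.25 and 0.32 on the log2 scale (adjusted p = 0.015, 0.0088, 0.037 and 0.015). Against the ERK2 knockout Cox6a1 (0.26) and Cox8a (0.28) rose, and the values of Cox4i1 (0.17) and Cox7a2 (0.13) did not pass (adjusted p = 0.089 and 0.21). Cox7a2l, a relative of Cox7a2 that links complexes III and IV, had 0.25 and 0.065 and was not called (adjusted p = 0.069 and 0.61), though it was called against the ERK1 knockout without the 5 libraries, at 0.37 (adjusted p = 0.0081).

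The muscle isoforms were near the floor of the data. Cox6a2 had at most 0.572 CPM and Cox8b at most 0.113 CPM in any library, and Cox4i2, an isoform known from lung, had at most 0.429 CPM; none of these 3 was tested. Cox7b2 and Cox8c, which are not muscle isoforms, are listed at 0 counts in all 21 libraries, which allows up to 0.0660 to 0.0796 CPM by library (3 counts, counting error only). Ndufs5, a subunit of complex I, is also listed at 0 counts in all 21, and no upper limit on its level is drawn from that. Why Ndufs5 has no counts was not tested. The heart and muscle isoform Cox7a1 was low but tested, at 0.520, 0.638 and 1.15 CPM in the double knockout, 0.707, 0.998 and 1.42 CPM in the ERK1 knockout and 1.15, 1.53 and 1.69 CPM in the ERK2 knockout. It fell against the ERK2 knockout by 1.04 ± 0.21 on the log2 scale (SE, adjusted p = 0.0010). The double knockout lay below every ERK2-knockout library, though the nearest pair of libraries both round to 1.15 CPM. Against the ERK1 knockout its value of -0.46 did not pass (adjusted p = 0.11). Summed over 9 skeletal muscle and heart markers, the libraries held 0.700 to 2.64 CPM, and Ckm and Myh2 were at 0 in all of them. Ndufa4l2, the paralog of Ndufa4 known from hypoxia, was at 0.741 to 1.86, 0.661 to 1.48 and 0.997 to 1.90 CPM, with overlapping ranges and no call.

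ATP synthase had 15 tested members, of which 9 were higher against the ERK1 knockout and 10 against the ERK2 knockout, with 0 lower in either and medians of 0.28 and 0.22. Without the 5 libraries these counts were 10 and 7. In the soluble F1 head, 4 of 5 subunits were higher in each comparison. Atp5b encodes the catalytic beta subunit and was the most abundant member per kilobase, at 691 CPM per kilobase in the ERK1 knockout and 985 in the double knockout. Its libraries spanned 1429.9, 1995 and 2129.6 CPM in the double knockout as lowest, median and highest, 1169, 1219 and 1876 CPM in the ERK1 knockout and 1135, 1299 and 1446 CPM in the ERK2 knockout. ERK1 KO 1, at 1876 CPM, lay inside the double-knockout range, and double KO 7, at 1429.9 CPM, lay inside the single-knockout ranges. The highest ERK2-knockout library, ERK2 KO 4 at 1446 CPM, was just above double KO 7. The fold changes were 0.41 ± 0.10 (SE, adjusted p = 0.011) and 0.36 ± 0.10 (SE, adjusted p = 0.0087).

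The alpha subunit Atp5a1 rose by 0.31 and 0.22, the gamma subunit Atp5c1 by 0.28 and 0.21 and the delta subunit Atp5d by 0.33 and 0.30, all with adjusted p from 0.0062 to 0.040. The Atp5a1 call against the ERK2 knockout was lost without the 5 libraries (adjusted p = 0.054). Atp5e, the smallest subunit of the head, had 0.17 and 0.094 and was not called (adjusted p = 0.18 and 0.42). In the stalk and membrane part, 3 and 4 of 7 subunits were higher. Atp5f1, the b subunit of the peripheral stalk (Atp5pb in RefSeq), rose by 0.38 (adjusted p = 0.0071) against the ERK1 knockout, and Atp5l, subunit g, by 0.36 (adjusted p = 0.017). Atp5k, subunit e, rose by 0.36 ± 0.12 (SE, adjusted p = 0.024) against the ERK2 knockout and had 0.30 against the ERK1 knockout (adjusted p = 0.079), and without the 5 libraries neither passed (adjusted p = 0.070 and 0.10).

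Subunit c forms the ring that turns in the membrane, and Atp5g1, Atp5g2 and Atp5g3 encode it with different import sequences. Atp5g3 was the most abundant of them, at 497 CPM per kilobase in the ERK1 knockout, against 99.5 for Atp5g2 and 38.9 for Atp5g1, whose merged GENCODE exons are 4912 bases long. Atp5g3 had 428, 477 and 559 CPM in the double knockout, 287, 360.0 and 422 CPM in the ERK1 knockout and 331, 350.0 and 425 CPM in the ERK2 knockout. The double knockout was above both single knockouts, since its lowest library exceeded ERK2 KO 1, the highest of the 14 others. With TMM scaling they overlapped, ERK2 KO 1 being at 471 and the double knockout starting at 418. Atp5g2 had 79.0, 93.8 and 104 CPM in the double knockout, 61.5, 75.4 and 82.8 CPM in the ERK1 knockout and 61.8, 69.7 and 74.3 CPM in the ERK2 knockout, and overlapped the ERK1 knockout through ERK1 KO 1. With TMM scaling double KO 2, at 72.8, lay within the ranges of both single knockouts.
Atp5g1 had 157 to 212 CPM in the ERK1 knockout, 166 to 209.8 in the ERK2 knockout and 171 to 263 in the double knockout, and these ranges lay over each other. Atp5g3 rose by 0.34 ± 0.088 (SE, adjusted p = 0.012) and 0.27 ± 0.088 (SE, adjusted p = 0.020), and Atp5g2 by 0.23 ± 0.070 (SE, adjusted p = 0.024) and 0.24 ± 0.070 (SE, adjusted p = 0.0098). Atp5g1 had 0.036 ± 0.10 (SE, adjusted p = 0.81) and -0.064 ± 0.10 (SE, adjusted p = 0.60); its sign changed with the scaling and with the libraries used. The difference between the 3 genes was not tested.

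**Figure D2:**
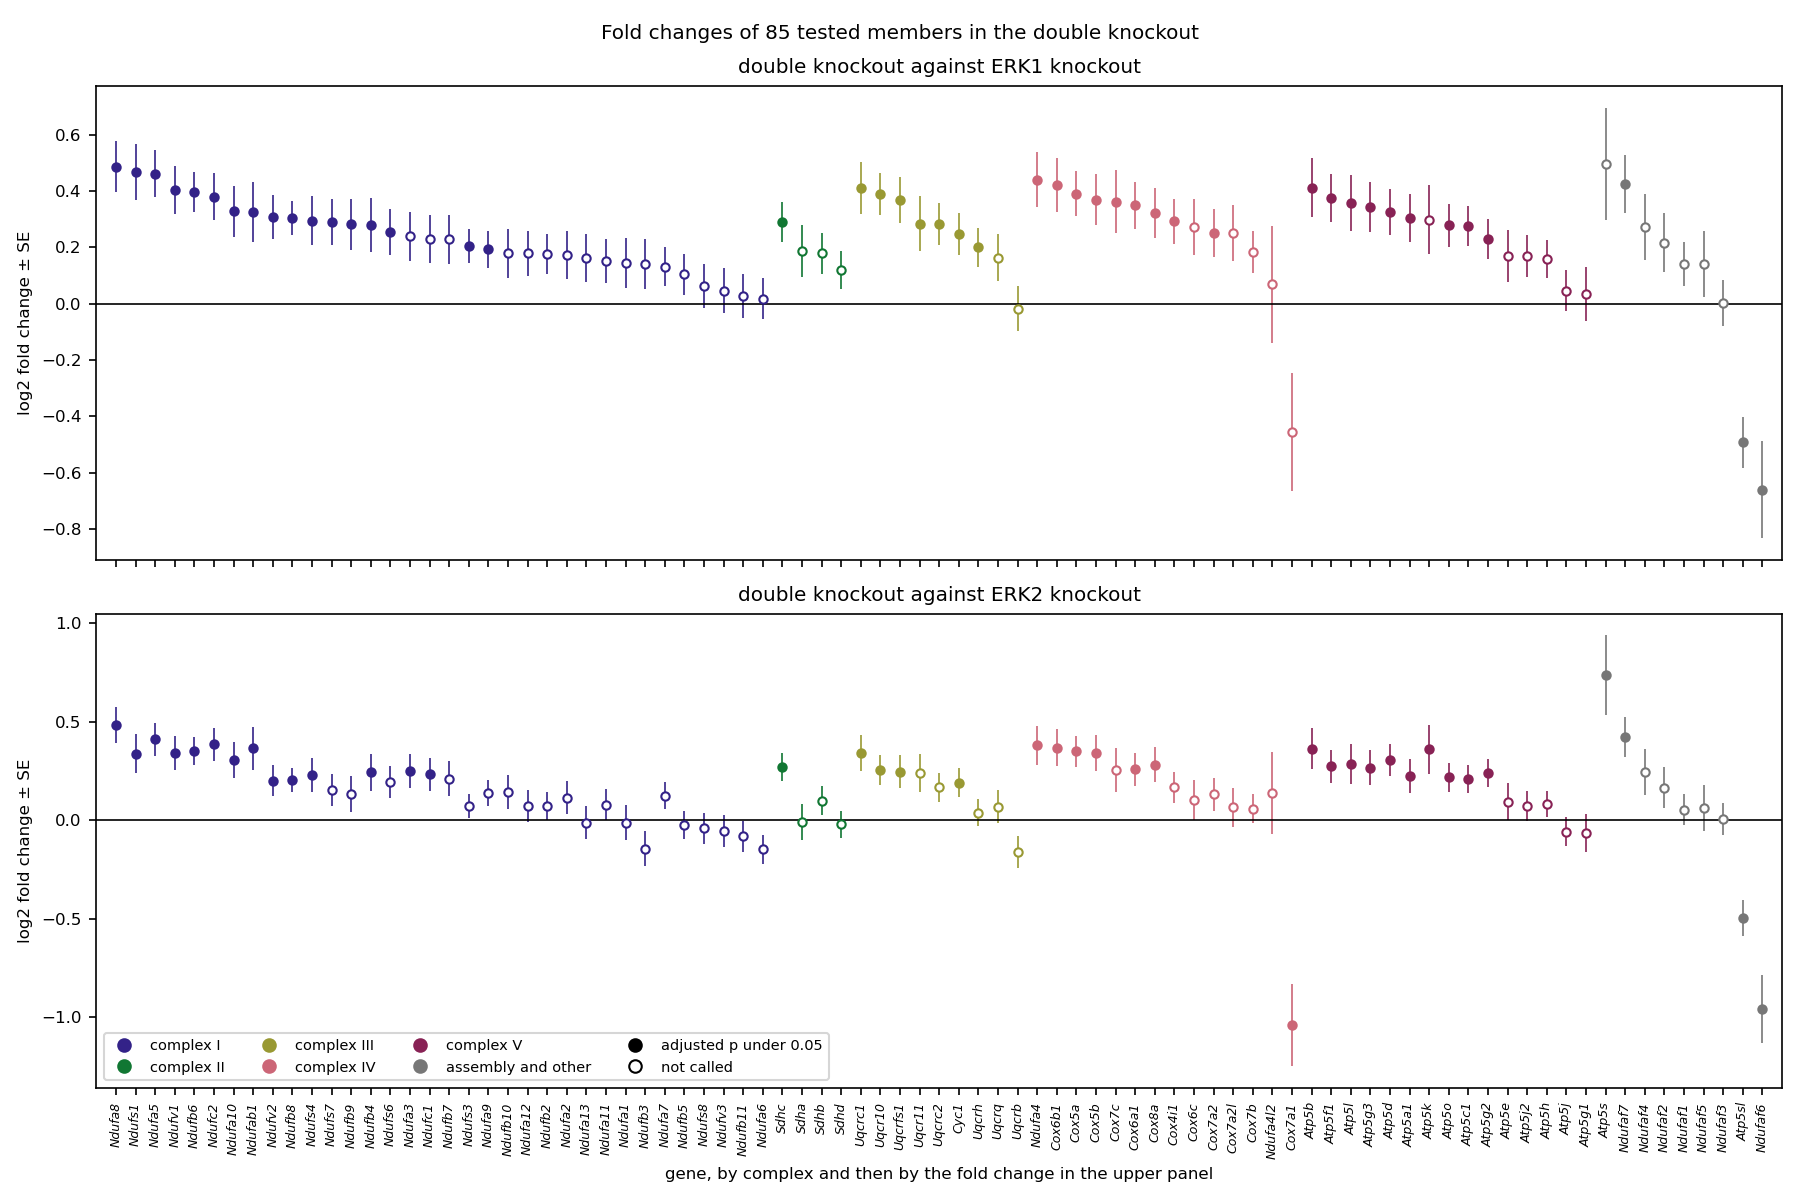
Points are the log2 fold changes of 85 of the 86 tested members with their standard errors, by complex, in the double knockout against the ERK1 knockout (upper panel) and against the ERK2 knockout (lower panel). Filled points passed an adjusted p under 0.05: 46 in the upper panel and 40 in the lower. Among subunit genes Ndufa8 is the highest (0.49 in the upper panel) and Cox7a1 the lowest (-1.04 in the lower panel), and the assembly genes Ndufaf6 and Atp5sl lie below 0 in both panels.

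The genes admitted by their prefix that are not subunits, 8 of complex I assembly and Atp5s, gave calls in both directions. Of these 9, 1 was higher and 2 were lower against the ERK1 knockout, and 2 were higher and 2 lower against the ERK2 knockout, with medians of 0.14 and 0.062. With the 5 libraries left out 3 were higher and 2 lower, and 2 higher and 2 lower. Of all genes tested, 12.2% were higher and 11.8% lower against the ERK1 knockout, and 24.3% and 20.3% against the ERK2 knockout. Without the 5 libraries these shares were 22.9% and 23%, and 26.1% and 25.1%. Counts this small are not read as a result about these 9 genes as a group. Ndufaf6, an assembly factor of complex I, had 8.13, 10.8 and 15.6 CPM in the double knockout, 9.34, 17.8 and 19.2 CPM in the ERK1 knockout and 14.0, 20.2 and 25.3 CPM in the ERK2 knockout. ERK1 KO 1, at 9.34 CPM, was low beside the other 6 ERK1-knockout libraries, which began at 17.1 CPM, and double KO 7, at 15.6 CPM, was the highest of the double knockout. Its fold changes were -0.66 ± 0.17 (SE, adjusted p = 0.012) and -0.96 ± 0.17 (SE, adjusted p = 0.00060), and -0.89 (adjusted p = 1.71e-05) and -1.16 (adjusted p = 9.31e-07) without the 5 libraries.

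Atp5sl, named for a likeness to an ATP synthase factor, encodes a protein of distal membrane arm assembly in complex I. It had 23.8, 27.2 and 29.7 CPM in the double knockout, 28.2, 37.0 and 40.4 CPM in the ERK1 knockout and 29.1, 34.6 and 36.6 CPM in the ERK2 knockout. The groups overlapped at their edges: double KO 2, the highest of its group, was above the lowest library of each single knockout. With TMM scaling they did not overlap, the double knockout ending at 28.3 and the single knockouts beginning at 28.6. The fold changes were -0.49 ± 0.089 (SE, adjusted p = 0.0047) and -0.50 ± 0.089 (SE, adjusted p = 0.00061). Ndufaf7, a methyltransferase that modifies a complex I subunit during assembly, went the other way, with 19.0, 26.3 and 29.9 CPM in the double knockout, 14.0, 17.9 and 25.8 CPM in the ERK1 knockout and 14.9, 17.5 and 18.9 CPM in the ERK2 knockout. It rose by 0.43 ± 0.10 (SE, adjusted p = 0.0088) and 0.42 ± 0.10 (SE, adjusted p = 0.0031), and in all 7 double-knockout libraries it was above every ERK2-knockout library. With TMM scaling ERK2 KO 1, at 20.9, was above double KO 7, at 19.7.

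Atp5s (Dmac2l in RefSeq, a relative of Atp5sl) was a low transcript, at 5.80, 8.11 and 12.6 CPM in the double knockout, 3.68, 4.98 and 11.4 CPM in the ERK1 knockout and 3.77, 4.35 and 5.47 CPM in the ERK2 knockout. It rose against the ERK2 knockout by 0.74 ± 0.20 (SE, adjusted p = 0.0065). Against the ERK1 knockout its value was 0.50 ± 0.20 (SE, adjusted p = 0.071) and did not pass, with ERK1 KO 1 at 11.4 CPM; without the 5 libraries it was 0.83 (adjusted p = 0.00074). The remaining assembly factors Ndufaf1, Ndufaf2, Ndufaf3, Ndufaf4 and Ndufaf5, named after their values were seen, had fold changes from 0.0034 to 0.27 against the ERK1 knockout and from 0.0078 to 0.24 against the ERK2 knockout, and none was called; without the 5 libraries Ndufaf2 was, at 0.25 against the ERK1 knockout (adjusted p = 0.043). Subunit genes alone, without these 9, gave 44 of 77 higher and 0 lower against the ERK1 knockout, and 35 higher and 1 lower against the ERK2 knockout.

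**Figure D3:**
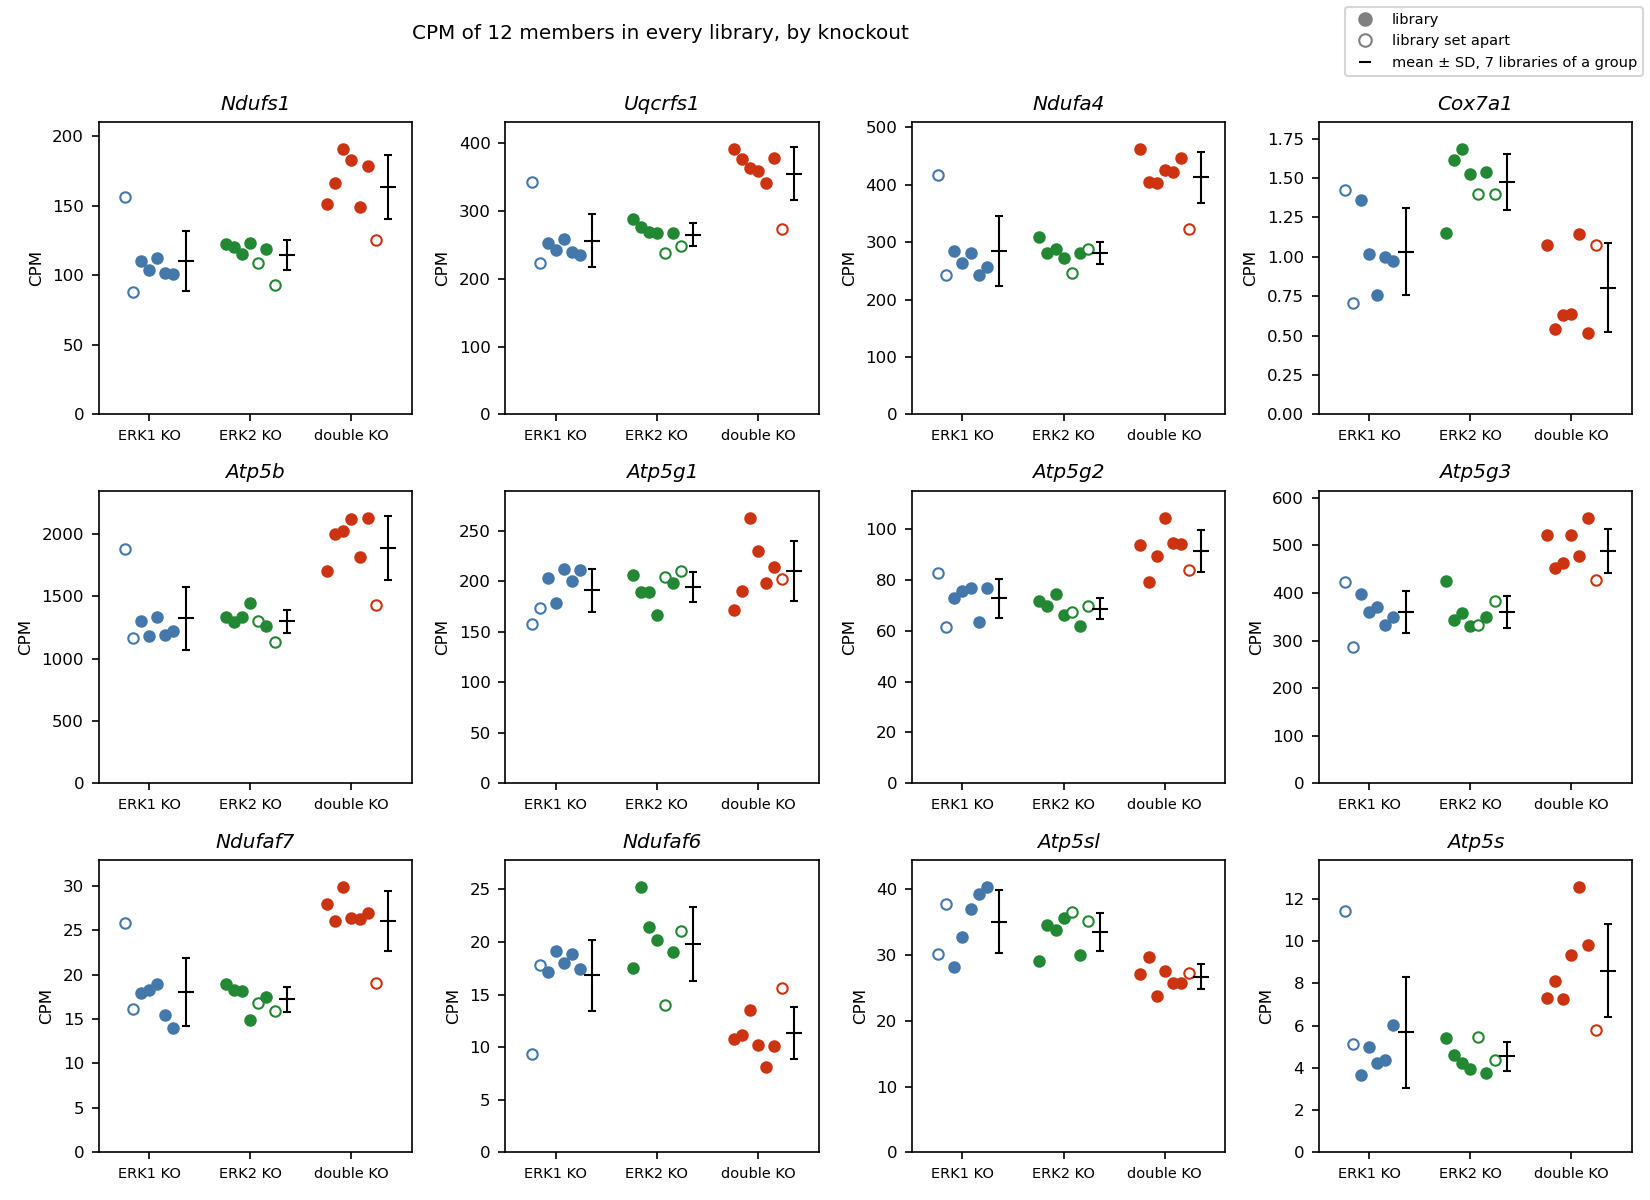
Each point is the CPM of a gene in 1 library, by group, for 12 members; open points are the 5 libraries set apart, and the bar beside each group is its mean ± SD over 7 libraries. Atp5g1 overlaps between groups while Atp5g2 and Atp5g3 are higher in the double knockout, Ndufaf6 and Atp5sl are lower there, and Cox7a1 is lower there than in the ERK2 knockout. The open ERK1-knockout point near the double-knockout values in Ndufs1, Uqcrfs1, Ndufa4, Atp5b, Ndufaf7, Ndufaf6 and Atp5s is ERK1 KO 1.

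Library by library, the members together took 1.58% to 2.03% of all counts in the double knockout, 1.27% to 1.73% in the ERK1 knockout and 1.34% to 1.54% in the ERK2 knockout. As mean ± SD over 7 libraries their summed level was 18505 ± 1461 CPM, 14217 ± 1549 CPM and 14351 ± 617 CPM. The highest single-knockout library was ERK1 KO 1 at 17322 CPM, and the lowest double-knockout library was double KO 7 at 15779.6 CPM; without the 5 libraries the double knockout began at 17792 CPM and the single knockouts ended at 15406 CPM. That separation was not found with TMM scaling, where ERK2 KO 1, at 17083, was above double KO 5, 2 and 3, at 15606, 16816 and 16945.5. Alb, the gene of albumin and among the most abundant liver transcripts, moved in the same libraries: it was at 4392 CPM in ERK1 KO 1 against 38003 to 92825 CPM in the other 6 ERK1-knockout libraries, and at 31176 CPM in double KO 7 against 4843 to 8288 CPM in the other 6 double-knockout libraries.

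Some calls rested on single libraries. Against the ERK1 knockout, Ndufs3 no longer passed without double KO 6 (adjusted p = 0.056). Cyc1 lost its call in 3 of 21 fits that left out a library, Atp5g2 in 4 and Cox7a2 in 9, with adjusted p of at most 0.055, 0.062 and 0.079. In the comparison with the ERK2 knockout, Atp5g3 no longer passed without double KO 6 (adjusted p = 0.053), Uqcrfs1 without ERK2 KO 5 (adjusted p = 0.053) and Atp5c1 without either of these libraries (adjusted p = 0.058 and 0.061). Atp5k lost its call in 4 of 21 such fits, Atp5a1 in 12, Ndufv2 in 14 and Cyc1 in 17, with adjusted p of at most 0.065, 0.10, 0.11 and 0.11. Calls were also gained: against the ERK1 knockout Cox7a1 passed without double KO 7, at -0.57 (adjusted p = 0.036), Sdhb without ERK1 KO 5 (adjusted p = 0.040), and Cox7a2l at adjusted p = 0.029 to 0.047 on leaving out a single library, whether ERK1 KO 1, ERK1 KO 2, double KO 1 or double KO 7.

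CPM is a share of all counts, so a member's CPM also depends on what the other genes took. With TMM the summed level was 17368 ± 1363 in the double knockout, 14289.6 ± 1179 in the ERK1 knockout and 15191.5 ± 933 in the ERK2 knockout. When library size alone set the scale, 73 members were higher and 2 lower against the ERK1 knockout, and 66 higher and 3 lower against the ERK2 knockout. The share of all genes called with that scaling is not given here, so these counts have no background beside them. That scaling moved the median of all genes to 0.10 and 0.18, and the members' medians of 0.35 and 0.34 stood 0.25 and 0.16 above it. With TMM the corresponding distances were 0.25 and 0.16. The direction of the members' median and of each complex's median did not change under library size, upper quartile or DESeq2 size factors in either double-knockout comparison.

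Setting the single knockouts against each other gave little. These groups differed in ERK1, in hepatocyte ERK2 and in Cre, whose effects cannot be told apart in this comparison. Between the ERK2 and the ERK1 knockout, 0 of 86 members were called by edgeR, where 0.00707% of all genes tested (1 of 14154) were called, and 7 members had an unadjusted p under 0.05. DESeq2 and limma-voom with sample weights also called 0 members, with 9 and 25 at an unadjusted p under 0.05. The median log2 fold change was 0.078, with 77 of 86 above 0, and it was 0.0027 with 46 of 86 above 0 when library size alone set the scale. Without the 5 libraries edgeR called 0 of 86 members, where 0.722% of all genes were called, and DESeq2 called 3. There the median was 0.12 and 21 members had an unadjusted p under 0.05. The shares of all genes at an unadjusted p under 0.05, or called by DESeq2 or limma-voom, are not given here. Counts of members by these measures are therefore not read as a result about the members.

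The members' median within-group SD over libraries was 0.15 on the log2 scale, against 0.25 over all genes tested. Levels per kilobase in the ERK1 knockout ranged from 1.93 (Cox7a1) and 1.44 (Ndufa4l2) to 691 (Atp5b) among tested subunits. After Atp5b came Cox6a1 at 635, Cox4i1 at 599.8, Atp5g3 at 497 and Ndufa4 at 456 CPM per kilobase. Complex I genes other than Ndufa4 were lower, from 12.9 to 244 CPM per kilobase, and the assembly genes ranged from 3.56 to 19.5. By exon length, the 43 members with shorter exons had a median of 0.24 against the ERK1 knockout and 0.17 against the ERK2 knockout, and the 43 with longer exons 0.27 and 0.19.

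RefSeq promoters, 250 bases before to 50 after the start, were matched for 73 of the 89 members; for 16 of these 73 no start in the table is at the outer end of the RefSeq gene, and for 7 it lies over 100 bases inside. Among those not matched were Atp5a1, Cox4i1, Cox4i2, Cox6a2, Cox6c, Cyc1, Ndufa2, Ndufa4l2, Ndufaf6, Ndufb9, Ndufs1, Sdhc, Uqcrb, Uqcrc2 and Uqcrq. NRF1, nuclear respiratory factor 1, is known for binding promoters of respiratory genes, and the letters GCATGCGC were in 16.4% of the members' promoters, 5.52% of those of all tested genes and 3.05% of all promoters of that length. For YY1 (AANATGGC) the shares were 26.0%, 9.49% and 6.96%, and 12 of its 19 member promoters belonged to complex I, as did 31 of all 73 matched. For ETS factors such as GABPA (CCGGAAG) they were 23.3%, 18.6% and 9.93%, for ERR (AAGGTCA) 9.59%, 4.24% and 5.38%, and for SP1 (GGGCGG) 43.8%, 65.4% and 38.2%. For CREB (TGACGTCA) they were 5.48%, 3.40% and 2.03%, for the antioxidant response letters TGACNNNGC 13.7%, 16.9% and 14.0%, and for TATAAA 8.22%, 9.55% and 15.7%. Both strands were searched, and the motifs were counted apart from one another.

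By motif, and against the ERK1 knockout the 12 tested members with the NRF1 letters had a median of 0.28 with 6 called higher, and the 60 without had 0.24 with 31 called higher. The 19 with YY1 letters had a median of 0.18 with 7 called higher, against 0.28 and 30 for the 53 without. The medians against the ERK2 knockout were 0.24 and 0.18 for NRF1, and 0.14 and 0.24 for YY1. These are descriptions of letters in a window and were not tested.

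Transcription factors and mitochondrial genome factors that drive respiratory gene expression were mostly not higher. Of 20 tested, 0 were higher and 8 lower against the ERK1 knockout, and 1 was higher and 7 lower against the ERK2 knockout, where 11.8% and 20.3% of all genes were lower and library size alone gave 0 and 2 lower. Nrf1 fell, with log2 fold changes of -0.29 and -0.31 (adjusted p = 0.046 and 0.018), and Gabpa, the DNA-binding subunit of nuclear respiratory factor 2, fell as well, at -0.24 and -0.34 (adjusted p = 0.041 and 0.0031). Polg, the mitochondrial DNA polymerase, fell by 0.36 (adjusted p = 0.034), and Lrpprc, which stabilises mitochondrial mRNA, fell by 0.56 against the ERK2 knockout (adjusted p = 0.00085). The coactivator genes Ppargc1a and Ppargc1b had 0.17 and -0.0032 against the ERK1 knockout and 0.23 and 0.22 against the ERK2 knockout, and were not called (adjusted p from 0.40 to 0.99). Esrra, the estrogen-related receptor alpha, rose by 0.27 against the ERK2 knockout (adjusted p = 0.023) and had 0.20 against the ERK1 knockout (adjusted p = 0.12). Tfam, which packages mitochondrial DNA, had -0.36 and -0.28 (adjusted p = 0.073 and 0.12), and without the 5 libraries it fell, at -0.36 and -0.40 (adjusted p = 0.022 and 0.010), while the Esrra call was lost (adjusted p = 0.052). Without the 5 libraries 1 was higher and 9 lower, and 0 were higher and 8 lower, where 23% and 25.1% of all genes were lower. With library size alone the list's median moved from -0.11 to -0.012 and from -0.14 to 0.028.

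Citric acid cycle genes, which supply the chain with NADH and succinate, were higher: 12 of 13 against the ERK1 knockout and 8 of 13 against the ERK2 knockout, with 0 lower and medians of 0.32 and 0.24; without the 5 libraries 13 and 8 were higher. Mdh2 (malate dehydrogenase) rose by 0.81 ± 0.15 (SE, adjusted p = 0.0047) against the ERK1 knockout and by 0.95 ± 0.15 (SE, adjusted p = 0.00044) against the ERK2 knockout, more than any respiratory chain subunit. Mitochondrial ribosome genes had 19 of 77 higher and 0 lower against the ERK1 knockout, and 14 higher and 2 lower against the ERK2 knockout, with medians of 0.12 and 0.036. Assembly factors outside the rule had 8 of 38 higher and 0 lower, and 7 higher and 3 lower; Cox19, a copper-handling factor of complex IV, rose by 1.08 and 1.34 (adjusted p = 0.0069 and 0.00062). Among 23 protein import genes 6 were higher and 3 lower in each comparison, and Timm17a, a subunit of the inner-membrane import channel, rose by 0.58 and 0.65. Beside these lists, 12.2% of all genes were higher against the ERK1 knockout and 24.3% against the ERK2 knockout. For the citric acid cycle counts without the 5 libraries, these shares were 22.9% and 26.1%. Against the ERK2 knockout the mitochondrial ribosome, assembly factor and import lists had shares higher that were near or under that of all genes.

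Genes outside mitochondria gave a scale for these shares. Proteasome genes had 16 of 39 higher and 0 lower against the ERK1 knockout, with a median of 0.16, and 10 higher and 1 lower against the ERK2 knockout, with a median of 0.082; without the 5 libraries 21 and 6 were higher. Cytosolic ribosome genes had 5 of 81 higher and 0 lower, with a median of 0.086, and 6 higher and 3 lower, with a median of -0.0016; with library size alone 32 and 39 of them were higher, with medians of 0.19 and 0.17. With all 21 libraries and TMM, 12.2% and 24.3% of all genes were higher against the ERK1 and ERK2 knockouts. Without the 5 libraries these shares were 22.9% and 26.1%, and those with library size alone are not given here. A share near that of all genes is not a result about a list.

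**Figure D4:**
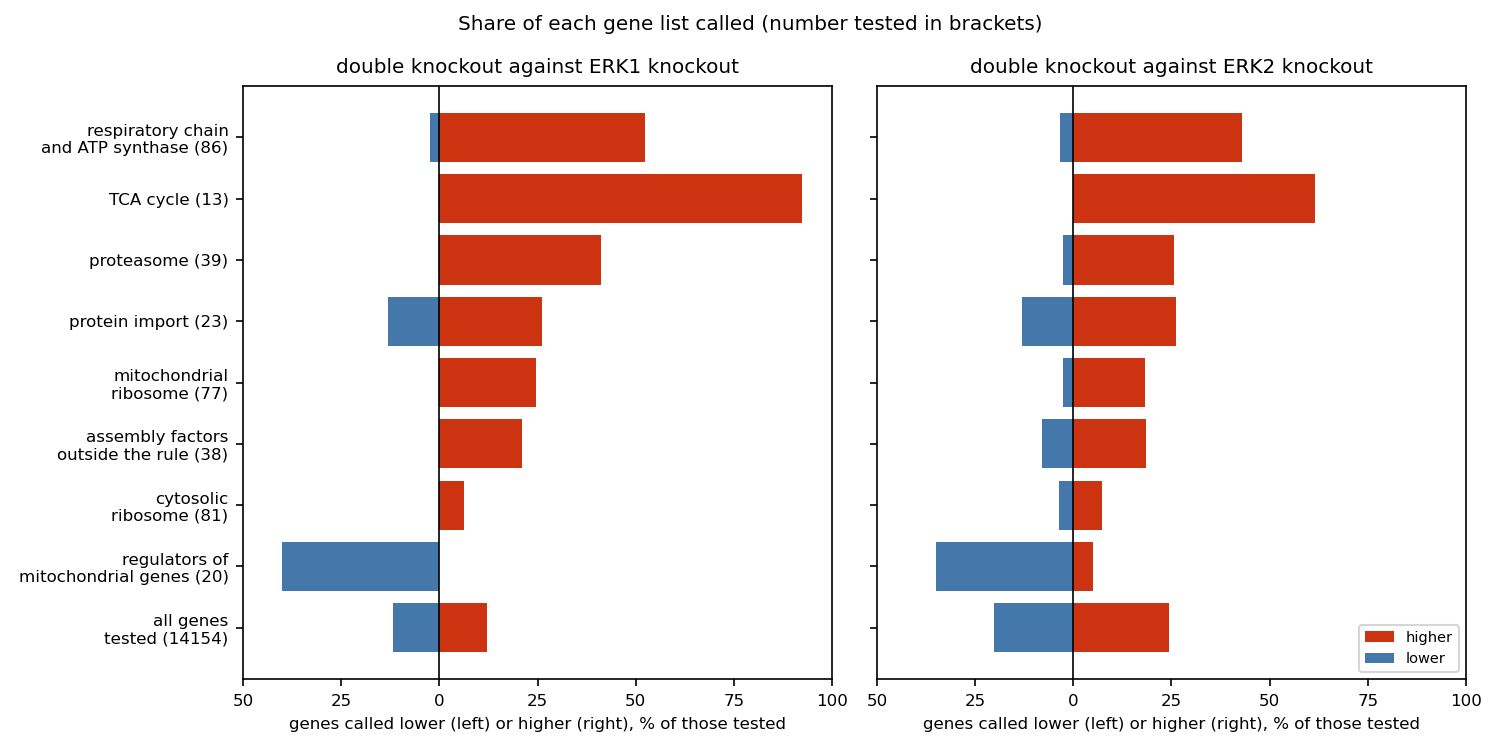
Bars give the share of each gene list called higher (right) or lower (left) in the double knockout against the ERK1 knockout and against the ERK2 knockout, as percent of the genes tested, with all genes tested at the foot. The respiratory chain and ATP synthase stand at 52.3% and 43.0% higher and the citric acid cycle at 92.3% and 61.5%, where 12.2% and 24.3% of all genes were higher. Regulators of mitochondrial genes have 8 and 7 of 20 lower, where 11.8% and 20.3% of all genes were lower, and 0 and 2 when library size alone sets the scale.

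Markers of several other cell types were called higher more often against the ERK2 knockout than against the ERK1 knockout, a difference that was not tested; of all genes 24.3% and 12.2% were higher. Of 9 Kupffer cell and macrophage markers, all present in every group, 2 were higher against the ERK1 knockout and 9 against the ERK2 knockout, and their sum was 249 to 2647 CPM in the double knockout, 258 to 1242 CPM in the ERK1 knockout and 199 to 699.5 CPM in the ERK2 knockout. Of 6 stellate cell markers 1 and 6 were higher, with sums of 180.4 to 718, 192 to 456 and 147 to 253 CPM in the same order of groups. Of 5 cholangiocyte markers 1 and 4 were higher, with sums of 53.6 to 671, 27.8 to 138 and 24.9 to 48.3 CPM. Of 5 neutrophil and monocyte markers 2 and 5 were higher, with sums of 2.36 to 39.0, 2.49 to 18.5 and 0.992 to 4.23 CPM. All 6 hepatocyte markers, which define the main cell of the labelled tissue, were detected in every group, with sums of 17326 to 49136, 23617 to 106543 and 49671 to 92047 CPM. Of these 2 and 4 were lower against the ERK1 and ERK2 knockouts, among them Alb, with log2 fold changes of -2.62 and -2.51 (adjusted p = 0.0057 and 0.0015). Of all genes 11.8% and 20.3% were lower in these comparisons. Over the 16 other libraries the sums in the double, ERK1 and ERK2 knockouts were 808 to 2647, 258 to 1082 and 199 to 699.5 CPM for Kupffer cells and macrophages, and 314 to 718, 192 to 293 and 147 to 209 CPM for stellate cells. For cholangiocytes they were 118 to 671, 38.3 to 60.5 and 24.9 to 36.2 CPM, and for neutrophils and monocytes 17.4 to 39.0, 2.49 to 13.8 and 0.992 to 4.23 CPM. The hepatocyte sums were then 17326 to 27393, 76852 to 106543 and 49671 to 68870.2 CPM, and the double knockout lay below both single knockouts. In that fit, against the ERK1 and ERK2 knockouts, 5 and 9 Kupffer cell and macrophage markers, 5 and 6 stellate, 2 and 4 cholangiocyte and 4 and 5 neutrophil and monocyte markers were higher, and of the hepatocyte markers 4 and 4 were lower and 1 and 1 higher. Of all genes 22.9% and 26.1% were higher, and 23% and 25.1% lower, without the 5 libraries. Sinusoidal endothelium had 3 and 2 of 6 markers lower, lymphocytes 0 and 1 of 6 higher. Of 3 erythroid genes 2 were at 0 counts throughout, the third was not called, and the fat markers summed to at most 0.262 CPM in any library, with Lep at 0 throughout. The part of these cells in the members' differences was not tested. In the absence of a stated strand setting, reads from overlapping genes on opposite strands could not be told apart, and small subunit genes with near-identical pseudogene copies carry uncertain counts.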

How the data were processed

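Flash-frozen mouse liver gave 21 RNA libraries, 7 in each of 3 genotype groups, read as pairs of 150 bases. The deposited table holds whole-number read counts per gene symbol, made by the authors, and 0 of its columns were left unused. The submitters' processing notes name FastQC, Trimmomatic, STAR, HTSeq, DESeq2 and edgeR, with mm10 and GRCm38 as builds, the annotation, strand setting and versions being not given in the sources used here. Totals of 37703680 to 45460470 counts leave counting error small for all but the lowest members, and intervals and floors cover counting error only.

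All genes were fitted together over the 3 groups with edgeR 4.0.16 (limma 3.58.1, R 4.3.3): filterByExpr, TMM scaling, quasi-likelihood F test, no covariate, and Benjamini-Hochberg adjustment over all genes tested at a threshold of 0.05. Each SE is the size of the log2 fold change divided by the root of F. Lowest, median and highest CPM use the full library totals, and levels per kilobase divide by merged GENCODE vM21 exons of coding transcripts. Tables were made with Python 3.11.15 and pandas 2.3.3. The fit was tested on simulated data.

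The members and gene lists were chosen with earlier results of these data known. Named genes were, per comparison and complex, up to 3 called rises and 2 called falls with the largest fold change, plus Mapk3, complex II, complex I core subunits, Uqcrfs1, Cyc1, the F1 subunits, isoform sets, members at the floor, up to 3 called genes per list and 6 regulators; others are said to be chosen after their values were seen. Some genes within this rule are not reported here, nor is the check that set apart the library labelled ERK1 KO 1. Alternatives were other scalings (library size, upper quartile, DESeq2 size factors), DESeq2 1.42.0, voom with sample weights, other filters, fits on the compared groups alone, fits without the 5 libraries and fits without each library.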

Additional observations from a re-analysis of the deposited data

Results flagged for a closer look

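Among 129 sets of 7 libraries (each of 42 named members, and the summed CPM of all members, in each group) 24 had a library that stood apart from the other 6 of its group by Dixon's test, where chance flags about 1 in 20 groups. The members share libraries, so these are not 24 independent events. The library labelled ERK1 KO 1 accounts for 17 of them. It was above the other 6 for the ATP synthase genes Atp5b (1876 CPM against 1169 to 1335), Atp5c1 (345 against 244 to 272), Atp5d (326 against 233 to 259), Atp5f1 (409 against 273 to 306) and Atp5l (128 against 78.9 to 93.7). It was above them for the complex IV genes Cox4i1 (542.5 CPM against 417 to 471), Cox6b1 (229 against 147 to 177), Cox7a2 (140.1 against 96.5 to 114) and Ndufa4 (416 against 243 to 286). For complex I it was high in Ndufs1 (156 CPM against 88.1 to 113) and Ndufv1 (231 against 155 to 185), and for complexes II and III in Sdhc (231 against 169 to 191), Uqcrc1 (398 against 229 to 296) and Uqcrfs1 (342 against 223 to 259). The assembly genes Atp5s (11.4 CPM against 3.68 to 6.02) and Ndufaf7 (25.8 against 14.0 to 18.9) were high in it as well, and Ndufaf6 was low (9.34 against 17.1 to 19.2).

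The library labelled double KO 7 was below the other 6 of its group for Cox6b1 (173 CPM against 238 to 286), Ndufa4 (323 against 403 to 463), Ndufaf7 (19.0 against 26.0 to 29.9), Sdhc (188 against 251 to 263) and Uqcrfs1 (273 against 342 to 392). ERK2 KO 1 was above the other 6 for Sdhb (258 CPM against 217 to 232) and Uqcrc1 (336 against 268 to 294); its Mapk3 level was that of its label.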

How the results depend on the processing

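The members' median kept its sign in all fits run. The shares of all genes called in the alternative fits below are not given here. A larger count of members called is therefore not read as a stronger result. Of 86 members, 47 were called against the ERK1 knockout and 40 against the ERK2 knockout. Library size alone called 75 and 69, and fits on the compared groups alone called 29 against the ERK1 knockout. Without the 5 libraries, library size alone, an alternative chosen after seeing the data, called 75 and 68. DESeq2 without the 5 libraries, also chosen after seeing the data, called 3 members between the single knockouts, where edgeR called 0. The members' median was 0.41 against the ERK1 knockout without the 5 libraries with library size alone. Against the ERK2 knockout it was 0.34 with library size alone and 0.36 with the 5 also left out. Leaving out each library in turn gave 34 to 55 calls against the ERK1 knockout, 28 to 44 against the ERK2 knockout and 0 between the single knockouts, with medians of 0.22 to 0.29, 0.15 to 0.20 and 0.062 to 0.12.

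In at least 1 alternative the sign changed for 6 of 86 members against the ERK1 knockout and for 17 against the ERK2 knockout, 18 members in all, none of them called with all 21 libraries; 5 of these are among the genes named by rule. Against the ERK1 knockout, Atp5g1 was -0.053 without the 5 libraries and -0.048 with DESeq2 on the same libraries, and Ndufa4l2 was -0.016 and -0.0099 there and -0.0072 with voom. Against the ERK2 knockout with library size alone, Atp5g1, Ndufs8, Sdha and Sdhd were 0.11, 0.13, 0.16 and 0.15, and 0.15, 0.14, 0.14 and 0.11 with the 5 libraries also left out. With the upper quartile Ndufs8, Sdha and Sdhd were 0.013, 0.044 and 0.032; with at least 1 CPM in 7 libraries Sdha and Sdhd were 0.014 and 0.0031, and Sdha was 0.018 with voom. Leaving out each library gave -0.018 to 0.080 for Atp5g1 and -0.029 to 0.18 for Ndufa4l2 against the ERK1 knockout. Against the ERK2 knockout it gave -0.095 to 0.0054 for Ndufs8, -0.053 to 0.038 for Sdha and -0.066 to 0.0066 for Sdhd. The cause was not tested.

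No paired analysis was possible because the labels give no replicate numbers, and those used here follow accession order. Depth limits Cox4i2, Cox6a2 and Cox8b, which were too low to test; for Ndufs5, Cox7b2 and Cox8c, at 0 counts in all 21 libraries, the cause was not tested.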
